A study of Mus musculus with 45 samples.

Results

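The genes of threonine, glycine and serine metabolism were followed while mouse neural progenitor cells (NPCs) were reprogrammed to induced pluripotent stem cells. The genes were chosen by name, as the enzymes that break down threonine, exchange serine and glycine, carry the one-carbon unit released by that exchange, make S-adenosylmethionine and synthesise serine. They are 10 of the 23575 genes in the deposited gene table, and all 10 were found in it: Tdh, Gcat, Gldc, Shmt1, Shmt2, Mthfd2, Mat2a, Phgdh, Psat1 and Psph.

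Threonine dehydrogenase (Tdh) and the ligase Gcat act in succession in mitochondria and turn threonine into glycine and acetyl-CoA. Glycine decarboxylase (Gldc) and the serine hydroxymethyltransferases Shmt1 (cytosolic) and Shmt2 (mitochondrial) pass a carbon unit from glycine or serine to folate, and Mthfd2 oxidises that unit in mitochondria. Phgdh, Psat1 and Psph form serine from a glycolytic intermediate in 3 steps, and Mat2a joins methionine to ATP to give S-adenosylmethionine, the donor for histone and DNA methylation. Mouse embryonic stem cells (ESCs) are known for their dependence on threonine catabolism.

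Full-length cDNA was sequenced on Oxford Nanopore flow cells in 45 libraries. There were 22 libraries of direct cDNA from poly(A) RNA (R9 flow cells, 447990 to 1390424 reads on genes) and 23 of PCR-amplified cDNA from total RNA (R10 flow cells, 566599 to 4236442 reads). Levels are CPM, each gene's reads scaled to a fixed total of reads on genes, so 1 read was worth more in a shallow library, and levels of different genes were not compared because CPM ignores transcript length. The RNA is from bulk cultures, in which fewer cells of a type and less RNA per cell cannot be told apart.

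The progenitors were made from Oct4-GFP ESCs (line O4G, R1 cells with GFP under the Oct4 promoter), and were wild type (WT) or stably transfected with the genotype OKMS-Luciferase-AS or OKS-Luciferase-AS. OKMS and OKS are the usual names for the reprogramming factors Oct4, Klf4, Myc and Sox2, with and without Myc. What the luciferase element does in these lines is not stated in the labels. Day 0 progenitors grew in NPC medium on Geltrex. For reprogramming they were moved to serum with LIF (15% FBS) and 1 µg/mL doxycycline and sampled at days 2, 4, 6, 10, 14 and 20 (R9) or at days 2, 4, 6, 10 and 18 for OKMS and 2, 6 and 18 for OKS (R10). Some cultures were moved to 2i-LIF medium, at day 6 for the R9 libraries of days 14 and 20 and on a day not stated for the R10 libraries of day 18. WT progenitors without reprogramming factors were also kept for 2 days in serum with LIF and doxycycline. The ESC lines O4G, R1 and R1-Clone3 grew in 2i-LIF. Each system, day and medium is 1 library per flow cell type. The labels do not say whether ESC or WT libraries of 1 group came from separate cultures, nor whether R9 and R10 libraries of 1 condition came from the same RNA, so p-values measure the spread between these libraries, which may be technical.

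The labelled cell types carried their markers. The 6 pluripotency genes listed summed to 10120 to 12920 CPM in R10 ESCs and to 15.4 to 26.3 CPM in R10 progenitors, and the neural progenitor markers to 5.45 to 42.6 and 4907 to 6415 CPM, with Sox1 at 0 in the R10 progenitors. The R1 ESC library without a number in its label stood apart from the other 6 R10 ESC libraries: 10 mitochondrially encoded genes took 0.124% of its reads against 1.81 to 2.35% of theirs. That share was 0.153 to 1.11% in the R10 progenitors, and its part in the results was not tested. In the order of deposit, the other 6 R10 ESC libraries stand in a later block with the 4 R10 libraries of day 18. The R1 library without a number stands in an earlier block with all R10 progenitors. What the blocks stand for is not stated in the labels.

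Tdh went from 0.956 ± 0.792 CPM (SD, n = 4) in progenitors to 1126 ± 154 CPM (n = 7) in ESCs in R10, Shmt1 rose and Phgdh fell in both chemistries. Gldc was called lower in R10 ESCs and not in R9 ESCs, a difference between chemistries that did not pass its test. Differences are of log2(CPM + 1), tested with limma and adjusted by Benjamini-Hochberg over all genes tested, and a gene is called when the adjusted p is under 0.05 and the difference is at least 1. In R10, 7 ESC against 4 progenitor libraries, 4 of the 10 genes were called (2 higher, 2 lower), beside 45.8% of the 15415 genes tested (22.4% higher, 23.5% lower). In R9, 2 ESC against 4 progenitor libraries, 4 of the 10 were called (3 higher, 1 lower), beside 36.0% of 15746 genes (17.6% higher, 18.4% lower). ESCs grew in 2i-LIF and progenitors in NPC medium, so cell type and medium cannot be told apart here. In R10 all ESC libraries but the R1 library without a number also stand in another block of deposit than the progenitors. For those libraries cell type and block cannot be told apart either. The median difference over the 10 genes in R10 was 0.01, and it was 0.01 over all genes tested.

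**Figure D1:**
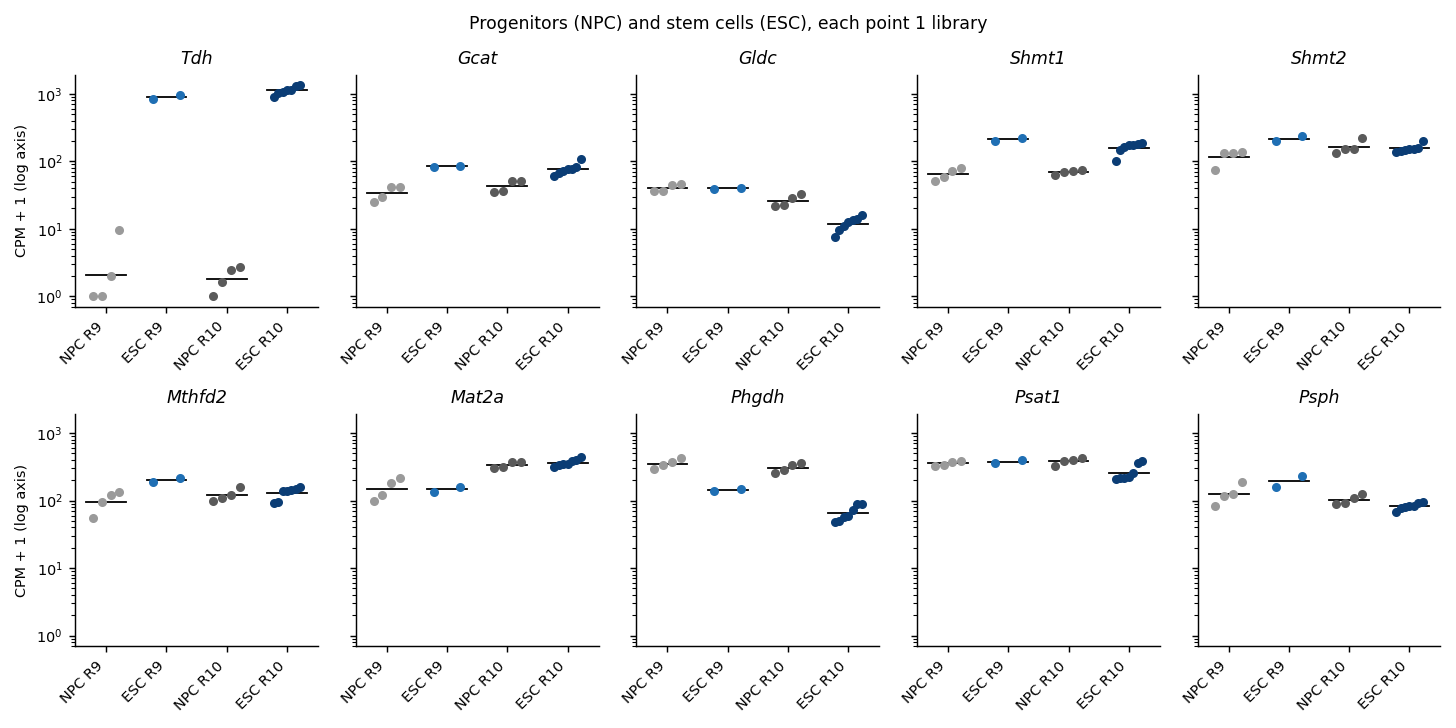
CPM + 1 (log axis) of each of the 10 genes in progenitors (NPC) and stem cells (ESC), by flow cell type, each point 1 library. Tdh lies at 0 to 8.43 CPM in all 8 progenitor libraries and at 838 to 1341 CPM in all 9 ESC libraries, and Phgdh is the gene whose ESC points lie furthest under the progenitor points.

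Tdh (chr14:63490882-63508936, minus strand, mm10), which takes the first step of threonine breakdown, was at 897 CPM in the lowest, 1115 in the median and 1341 in the highest of the 7 R10 ESC libraries. It was at 0 in the R10 OKMS progenitors, 1.75 CPM in the OKS progenitors and 0.635 and 1.44 CPM in the WT progenitors, which together is 10 reads. The R9 ESC libraries held 838 (O4G) and 949 CPM (R1), and the R9 progenitors 0 and 0.968 (WT), 0 (OKMS) and 8.43 CPM (OKS, 5 reads). No progenitor library came near any ESC library. A library at 0 reads still allows 3 reads, which is up to 1.32 CPM for the R10 OKMS progenitors and 4.01 and 4.04 CPM for the R9 WT and OKMS progenitors (counting error only). The R10 difference was 9.26 ± 0.22 (SE; adjusted p = 3.92e-14) and the R9 difference 8.75 ± 0.93 (adjusted p = 0.000568). An unannotated gene on the opposite strand that overlaps the 5′ end of the locus (chr14:63508481-63511652) had 0 reads in each of the 8 progenitor libraries and 2.61 to 8.95 CPM in R10 ESCs. How strand was used in the counting is not stated in the sources used here, so reads of the overlapping stretch cannot be assigned firmly.

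Gcat (chr15:79030839-79038359, plus strand), the ligase that splits the product of Tdh into glycine and acetyl-CoA, had 59.6 CPM in the lowest, 75.1 in the median and 108 in the highest R10 ESC library. The R10 progenitors held 34.7 (OKMS), 34.5 (OKS), 50.8 and 50.2 CPM (WT). The groups did not overlap, but the difference of 0.83 ± 0.17 was under the fold limit, so Gcat was not called (limma adjusted p = 0.000467). In R9 it was called, at 81.4 and 84.7 CPM in ESCs and 24.2 to 40.5 CPM in progenitors (1.33 ± 0.25, adjusted p = 0.00617), a call that was lost in the fits with 1 ESC library, where the difference was 1.301 (adjusted p = 0.0878) without R1 and 1.36 (adjusted p = 0.0786) without O4G.

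Gldc (chr19:30098447-30175480, minus strand) is the glycine-decarboxylating subunit of the glycine cleavage system. It had 6.56 CPM in the lowest, 11.6 in the median and 14.8 in the highest R10 ESC library, against 27.2 (OKMS), 21.6 (OKS), 31.8 and 20.7 CPM (WT) in progenitors. Every R10 ESC library was under every R10 progenitor library, and Gldc was called lower (-1.15 ± 0.22, adjusted p = 0.000234). In R9 the ESCs (39.8 and 37.2 CPM) lay among the progenitors (34.8 to 45.5 CPM), with a difference of -0.04 ± 0.18 (adjusted p = 0.876). The limma test of the difference between R10 and R9 did not pass for Gldc (-1.12 ± 0.345, adjusted p = 0.0666). It passed for no other of the 10 genes, while 3.83% of 15300 genes passed it. Near the threshold were Shmt2 (-0.97 ± 0.285, adjusted p = 0.0563, the lowest), Psph (-0.98 ± 0.295, adjusted p = 0.061) and Phgdh (-0.94 ± 0.292, adjusted p = 0.0677). The difference was lower in R10 than in R9 for all of the 10 but Tdh (0.51) and Mat2a (0.10).

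Shmt1 (chr11:60773302-60811293, minus strand), the cytosolic serine hydroxymethyltransferase, had 100.1 CPM in the lowest, 171 in the median and 184 in the highest R10 ESC library. The R10 progenitors held 69.0 (OKMS), 60.8 (OKS), 72.7 and 70.0 CPM (WT), with no overlap. Shmt1 was called higher in R10 (1.20 ± 0.15, adjusted p = 5.12e-06) and in R9 (201 and 222 CPM against 50.3 to 78.9, 1.73 ± 0.21, adjusted p = 0.000922).

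Shmt2 is the mitochondrial enzyme of the same reaction. Its deposited span (chr10:127516853-127629863, minus strand) runs far past its GENCODE gene (chr10:127517123-127522444). Shmt2 ranged from 137 to 200.5 CPM in R10 ESCs and from 133 to 221 CPM in R10 progenitors, so the groups overlapped (-0.07 ± 0.14, 95% interval -0.37 to 0.24). Mthfd2 (chr6:83305691-83325973, minus strand), the mitochondrial folate dehydrogenase and cyclohydrolase, also overlapped, with 89.97 to 159.6 CPM in R10 ESCs and 97.6 to 158 in progenitors (0.10 ± 0.18). In R9 both were higher in ESCs without being called: 196 and 236 against 73.6 to 136 CPM for Shmt2 (0.90 ± 0.28, adjusted p = 0.0398, under the fold limit) and 215 and 187 against 53.2 to 134 CPM for Mthfd2 (1.07 ± 0.37, adjusted p = 0.0569). The Mthfd2 result lies at the threshold: it was called without the first WT progenitor library (1.23, adjusted p = 0.0374), with a minimum of 5 CPM (1.07, adjusted p = 0.032), with median centring (1.22, adjusted p = 0.0285), with edgeR (1.09, adjusted p = 0.0271) and with DESeq2 (1.10, adjusted p = 0.00148). Shmt2 was called with median centring (1.06, adjusted p = 0.0201). Mat2a (chr6:72432707-72439604, minus strand) had 310 to 435 CPM in R10 ESCs and 303 to 376 in progenitors (0.10 ± 0.11, adjusted p = 0.451).

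The first enzyme of serine synthesis, Phgdh (chr3:98313155-98339990, minus strand), was the other large change. It had 47.5 CPM in the lowest, 58.7 in the median and 89.3 in the highest R10 ESC library, against 253.5 (OKMS), 282 (OKS), 356 and 333 CPM (WT) in progenitors. All ESC libraries were under all progenitor libraries, and the difference was -2.23 ± 0.18 (adjusted p = 3.43e-08), a 4.69-fold lower level. In R9 it was called lower by a smaller difference, 147 and 139 CPM against 288 to 420 CPM (-1.29 ± 0.16, adjusted p = 0.0012).

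The 2 later enzymes of serine synthesis were not called, and their differences had opposite signs in R10 and R9. Psat1 (chr19:15904549-16055949, minus strand) had 208 CPM in the lowest, 219.5 in the median and 389 in the highest R10 ESC library, against 323 to 429 CPM in progenitors (-0.56 ± 0.18, adjusted p = 0.0122, under the fold limit). Its 2 R1-Clone3 libraries, at 389 and 364 CPM, lay among the progenitors, and the other 5 ESC libraries, at 208 to 258 CPM, did not. Psph (chr5:129765537-129935669, minus strand), the phosphatase of the last step, had 67.7 to 92.6 CPM in R10 ESCs and 87.3 to 124 CPM in progenitors (-0.33 ± 0.13, adjusted p = 0.0365, under the fold limit). In R9, Psat1 was at 355 and 401 CPM in ESCs and 329 to 382.5 CPM in progenitors (0.10 ± 0.11, adjusted p = 0.516). Psph was at 160.0 and 234 CPM against 83.3 to 186 CPM (0.65 ± 0.33, adjusted p = 0.152). The R10 and R9 differences of neither gene were called different from each other (adjusted p = 0.169 for Psat1 and 0.061 for Psph).

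With the R1 library without a number as the only ESC library, the Tdh and Phgdh calls held in R10 (8.95, adjusted p = 0.00229, and -1.75, adjusted p = 0.00994). The calls of Gldc (-1.05, adjusted p = 0.0656) and Shmt1 (0.55, adjusted p = 0.0364) were lost, and Gcat was called (1.35, adjusted p = 0.0419). In that fit 1 library is assumed to vary like the progenitors. That library is the only R10 ESC library in their block of deposit. Under median centring the median of all genes moved from 0.01 to 0.24, Gldc was not called in R10 (-0.92), and Gcat was called (1.07, adjusted p = 8.23e-05), which gave 3 higher and 1 lower.

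Of the folate enzymes outside the 10 genes, 5 of 11 tested rose in R10 ESCs and 2 fell, beside 22.4% and 23.5% of all genes, with a list median of 0.88 beside 0.01 over all genes. Those with the largest differences were Mthfd2l, the Mthfd2 paralogue (0.206 CPM in ESCs, 4.48 in progenitors, -2.19), Aldh1l1 (16.1 ± 4.86 SD against 3.54 ± 1.85 CPM, 1.95), Aldh1l2 (0.305 against 3.07 CPM, -1.62) and Mthfd1, the cytosolic trifunctional folate enzyme (198 ± 25.5 against 74.0 ± 15.8 CPM, 1.42). Of the methionine cycle and transsulfuration list, 5 of 10 tested rose and 1 fell, with a median of 0.82. Cth, the last enzyme of transsulfuration, was at 215 ± 61.0 CPM in ESCs and 6.54 ± 3.08 CPM in progenitors (4.86), and Bhmt, which remethylates homocysteine with betaine, was at 20.9 ± 6.17 CPM in ESCs and at 0 in all 4 R10 progenitor libraries. Mtr, methionine synthase, was at 37.9 against 10.3 CPM (1.76). Of the 3 partners of Gldc in glycine cleavage, Amt rose (94.1 ± 45.6 against 40.9 ± 7.29 CPM, 1.10).

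The transporter list was drawn up for serine, glycine, threonine and methionine, but it also holds Slc25a28, a mitochondrial iron carrier. Of its 9 genes tested, 1 rose and 3 fell in R10 ESCs, with a median of -0.95. Their calls, 4 of 9, and those of the amino acid response genes, 5 of 11, were each near the 45.8% called over all genes. Slc1a5 was higher (66.5 ± 55.4 against 11.3 ± 9.12 CPM, 2.43), and Slc6a9, a glycine transporter, was lower (2.17 against 10.7 CPM, -1.95), as were Slc1a4 (6.11 against 20.1 CPM, -1.60) and Slc7a5, the light chain of a large neutral amino acid exchanger (22.4 against 66.6 CPM, -1.56). Of the amino acid response genes, 2 of 11 tested rose and 3 fell, with a median of 0.09. Asns, asparagine synthetase, rose from 103 ± 38.2 to 971 ± 208 CPM (3.25) and Trib3 from 2.62 to 32.7 CPM (3.26), while Ddit4 fell from 170 to 29.2 CPM (-2.56) and Slc7a11 from 2.36 to 0.112 CPM (-1.51). These values are all from R10. In R9 the calls were 5 higher and 1 lower of 11 folate enzymes, 3 higher of 10 methionine cycle genes, 1 higher of 9 transporters and 3 higher of 11 response genes, beside 17.6% higher and 18.4% lower over all genes.

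After 2 days in serum with doxycycline, with no reprogramming factors, most of the 10 genes were lower in WT progenitors. In R10, 2 libraries in serum against 2 in NPC medium, 7 of the 9 genes tested were called, all 7 lower, beside 26.8% of 14688 genes (14.9% higher, 11.9% lower). The median over the 9 genes was -2.02, beside 0.12 over all genes. Medium, serum, LIF and doxycycline changed together and cannot be told apart. The 2 libraries in NPC medium are also among the progenitors set against ESCs.

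Mthfd2 fell most in log2 terms among the 10. It was at 2.35 and 4.94 CPM in serum (6 and 15 reads) and at 158 and 122 CPM in NPC medium, a difference of -4.97 ± 0.38 (limma adjusted p = 0.00176). The R9 serum library held 2.83 CPM (2 reads) against 134 and 53.2 CPM in the R9 WT progenitors. Gcat was at 1.17 and 3.29 CPM (3 and 10 reads) against 50.8 and 50.2 CPM, -4.07 ± 0.44 (adjusted p = 0.00347), and Shmt1 at 6.66 and 5.27 CPM against 72.7 and 70.0 CPM, -3.38 ± 0.29 (adjusted p = 0.00224). For these 3 genes the serum libraries were all far under every WT progenitor library.

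Shmt2 was at 32.9 and 41.2 CPM in serum against 221 and 153 CPM (-2.29 ± 0.27, adjusted p = 0.0043), and Gldc at 3.52 and 8.57 CPM against 31.8 and 20.7 CPM (-2.02 ± 0.49, adjusted p = 0.0316). Psat1 was at 115.5 and 145 CPM against 323 and 381 CPM (-1.43 ± 0.23, adjusted p = 0.00958), and Psph at 41.1 and 40.9 CPM against 87.3 and 92.1 CPM (-1.11 ± 0.21, adjusted p = 0.0155). Serum and NPC medium did not overlap for any of the 7 genes. With 2 libraries per group, calls favour genes whose groups do not overlap, so this adds nothing to the calls. The share without overlap over all genes was not counted.

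Phgdh and Mat2a were not called, and their serum values were the higher ones. Phgdh was at 376 and 544 CPM in serum and 356 and 333 CPM in NPC medium (0.39, adjusted p = 0.296), and Mat2a at 632 and 373 against 308 and 303 CPM (0.67, adjusted p = 0.151). Tdh stayed at 0.783 and 0.659 CPM and was too low to test.

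Beside these genes, 5 of 11 other folate enzymes fell, Mthfd1 and Tyms among them, and 2 rose, with a list median of -1.06. Over all genes 11.9% were lower and 14.9% higher. The transporters went the other way, summing to 992 to 1336 CPM in serum and 398 to 560 CPM over the R10 progenitors. Lower in serum were the sums of the methionine cycle list (176 to 199 against 268 to 369 CPM) and the response genes (368 to 416 against 660 to 855 CPM). The proliferation markers Ccnb1, Mki67, Pclaf and Top2a all 4 fell: their summed level was 15.8 to 31.7 CPM in serum and 1406 to 1564 CPM over the R10 progenitors. The summed astrocyte markers were at 1401 to 3285 CPM in serum and 209 to 355 CPM in the R10 progenitors, where 2 of 4 rose. Myc was at 5.87 and 14.8 CPM in serum and at 211 and 138 CPM in NPC medium. The part of cell division, astrocyte-type RNA or Myc in the lower levels was not tested.

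The 7 calls rest on 4 libraries. Leaving out 1 of them leaves a group of 1, whose spread is taken from the other group. With the serum library of replicate 2 or either NPC medium library left out, limma called 0 of the 10 genes and 0 of all genes, with 6 or 7 of the 10 at an unadjusted p under 0.05. With the serum library of replicate 3 left out, 3 of the 10 and 1141 of all genes were called. The difference of Mthfd2 was -4.55 without serum replicate 2, -4.78 without NPC medium replicate 2 and -5.15 without NPC medium replicate 3.

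The promoters of the 3 genes that fell most are shown because these genes moved together, also between the 2 reprogramming systems described next. Each window holds 90 bases before and 10 after the RefSeq start on GRCm38.p6, read 5′ to 3′ on the gene's strand at chr6:83317595-83317694 (minus), chr11:60811256-60811355 (minus) and chr15:79030784-79030883 (plus). Capitals mark CACGTG, which is bound by Myc and other E-box factors, GGGCGG, the core of a GC box, and CCAAT, on either strand.
Mthfd2: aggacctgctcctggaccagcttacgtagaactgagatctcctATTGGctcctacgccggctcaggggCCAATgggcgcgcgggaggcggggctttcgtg
Shmt1: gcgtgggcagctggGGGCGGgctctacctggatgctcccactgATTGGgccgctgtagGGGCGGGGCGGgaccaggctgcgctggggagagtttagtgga
Gcat: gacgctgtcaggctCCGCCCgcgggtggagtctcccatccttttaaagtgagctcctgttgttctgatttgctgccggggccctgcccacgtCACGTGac
RefSeq promoter windows of 300 bases matched 9 of the 10 genes. Of their 10 windows, 1 (Gcat) held CACGTG, 6 GGGCGG and 7 CCAAT, beside 7.15%, 35.7% and 37.4% of all 32851 windows. TGATGNAAT, the amino acid response element bound by ATF4 with CEBP proteins, was in 0 of the 10 windows and in 0.965% of all. The same stretch of a window can match GGGCGG more than once, and a match is a description of letters, not of binding.

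During reprogramming in serum, most genes that fell in WT progenitors were also low in the OKS libraries of days 2 to 10, and stayed nearer their day 0 level in the OKMS libraries of the same days. Over the 6 R9 day pairs from day 2 to day 20, limma called 6 of the 10 genes, all 6 higher in OKMS, beside 18% of 14277 genes (6.93% higher, 11.0% lower). The median over the 10 genes was 1.20, beside -0.11 over all genes. Each day is 1 library per system, so the spread is that between days.

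**Figure D2:**
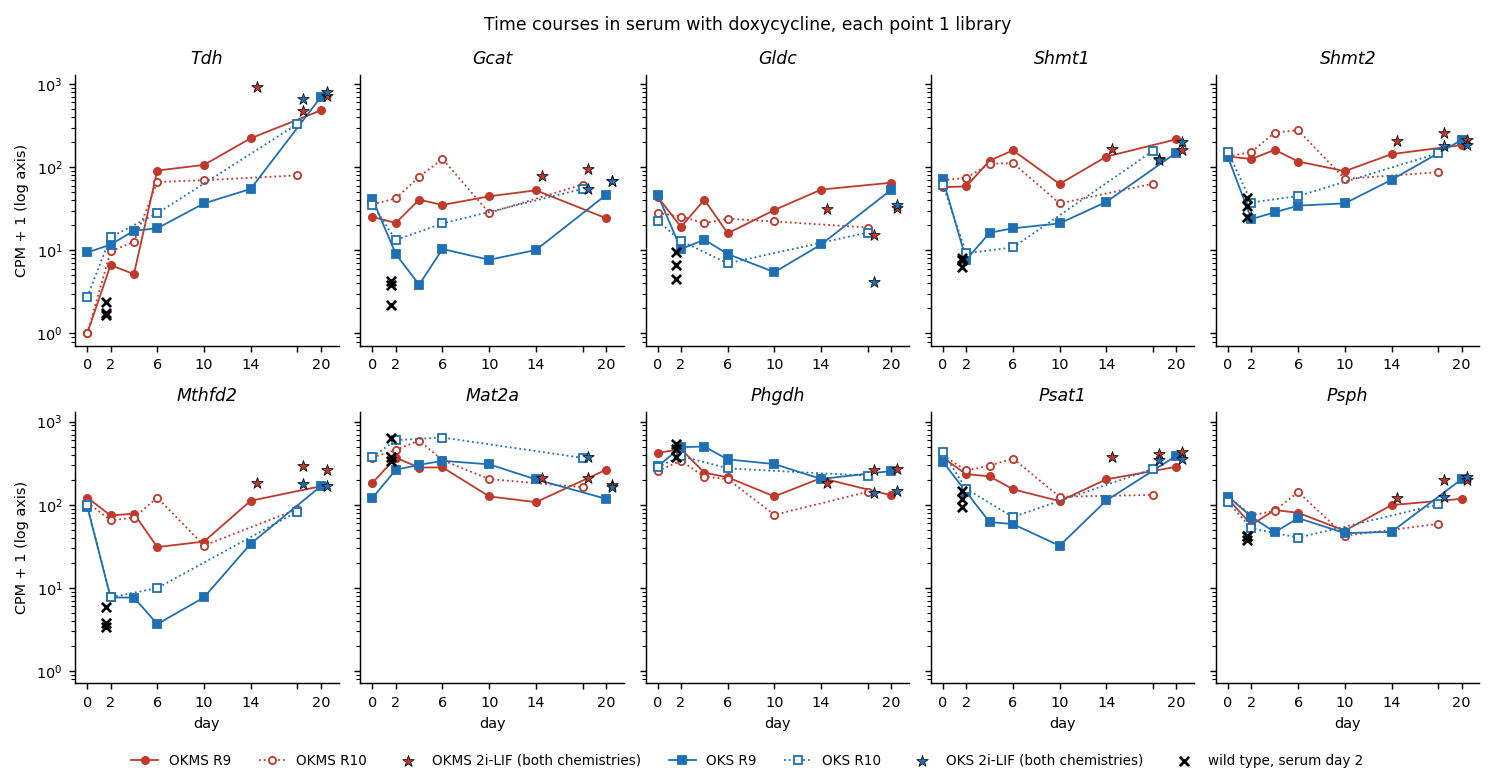
CPM + 1 (log axis) by day in serum with doxycycline for the 10 genes, OKMS and OKS, R9 and R10, each point 1 library. Stars are cultures in 2i-LIF and crosses are WT progenitors after 2 days in serum, and for Mthfd2, Gcat and Shmt1 the OKS lines lie under the OKMS lines of the same chemistry from day 2 to day 10, and mostly above the crosses.

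Mthfd2 in R9 OKMS libraries was at 73.5, 77.2, 30.0, 35.2, 111 and 166 CPM at days 2, 4, 6, 10, 14 and 20. In OKS it was at 6.69, 6.68, 2.68, 6.69, 33.1 and 166 CPM at the same days, which was 2 to 7 reads in each library up to day 10. OKMS was above OKS at days 2 to 14, and both were at 166 CPM at day 20 (2.28 ± 0.38 over the 6 pairs, adjusted p = 0.00167). Relative to its own day 0, OKS stood at 7.08% at day 2 and OKMS at 60.6%. R10 libraries gave 6.72 and 8.96 CPM in OKS and 64.0 and 121 CPM in OKMS at days 2 and 6.

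Shmt1 in R9 was at 57.6, 119, 158, 61.9, 133 and 215.5 CPM in OKMS and at 6.69, 15.3, 17.4, 20.1, 37.2 and 149 CPM in OKS. OKMS was higher on all 6 days (2.14 ± 0.31, adjusted p = 0.000957). Shmt2 was at 124, 161, 116, 88.6, 142 and 183.5 CPM in OKMS and at 22.7, 27.7, 33.5, 35.7, 69.5 and 211 CPM in OKS. OKMS was higher on 5 of 6 days, day 20 being the exception (1.46 ± 0.30, adjusted p = 0.00382).

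Gcat was at 20.3, 39.7, 34.1, 43.6, 51.7 and 23.4 CPM in OKMS and at 8.02, 2.86, 9.37, 6.69, 9.10 and 45.3 CPM in OKS. It too was higher in OKMS on all days but day 20 (1.73 ± 0.45, adjusted p = 0.013). Gldc was at 15.0 to 64.0 CPM in OKMS and 4.46 to 52.5 CPM in OKS, higher in OKMS on 6 of 6 days (1.38 ± 0.32, adjusted p = 0.00809). Psat1 was at 233, 219, 153, 109.7, 201.5 and 286 CPM in OKMS and at 142, 61.0, 57.6, 31.2, 112 and 389 CPM in OKS, higher in OKMS on 5 of 6 days (1.02 ± 0.26, adjusted p = 0.0114). Without day 4, Gcat (1.40, adjusted p = 0.0533) and Psat1 (0.86, adjusted p = 0.0501) were not called, and without day 6 (0.94) or day 10 (0.87) Psat1 was under the fold limit.

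Tdh, Mat2a, Phgdh and Psph were not called. Phgdh was lower in OKMS on 5 of 6 days (-0.68 ± 0.19, adjusted p = 0.02, under the fold limit), at 467, 242, 213, 125, 209 and 129 CPM against 493.4, 501, 351, 308, 203.5 and 254 CPM. Psph differed by 0.19 (adjusted p = 0.572) and Mat2a by -0.15 (adjusted p = 0.691).

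Over days 2 to 10 alone, a choice made after seeing the data, 6 of the 10 were called. The share over all genes in that fit is not given here, so the count is not read as a result about the 10. The 2 pairs of days 14 and 20 alone gave 14 calls over all genes and 0 of the 10 by limma, with 2 at an unadjusted p under 0.05, and with so few pairs that count does not show a smaller difference. The test of a change between early and late pairs did not pass for any of the 10 genes, with the smallest adjusted p, 0.319, for Mthfd2 (-2.13 ± 0.57). In R10 the pairs of days 2, 6 and 18 gave 0 calls of the 10 and 0 over all genes, with 3 of the 10 at an unadjusted p under 0.05. At R10 day 18 OKMS was the lower of the 2 systems for Shmt1 (62.3 against 156 CPM), Shmt2 (86.1 against 146 CPM) and Psat1 (131 against 270.2 CPM). The pairs of days 2 and 6 alone, a choice made after seeing the data, gave 4 of the 10, beside 510 of 15441 genes: Mthfd2 (3.35, adjusted p = 0.0252), Shmt1 (3.20), Shmt2 (2.33) and Gcat (2.12).

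**Figure D3:**
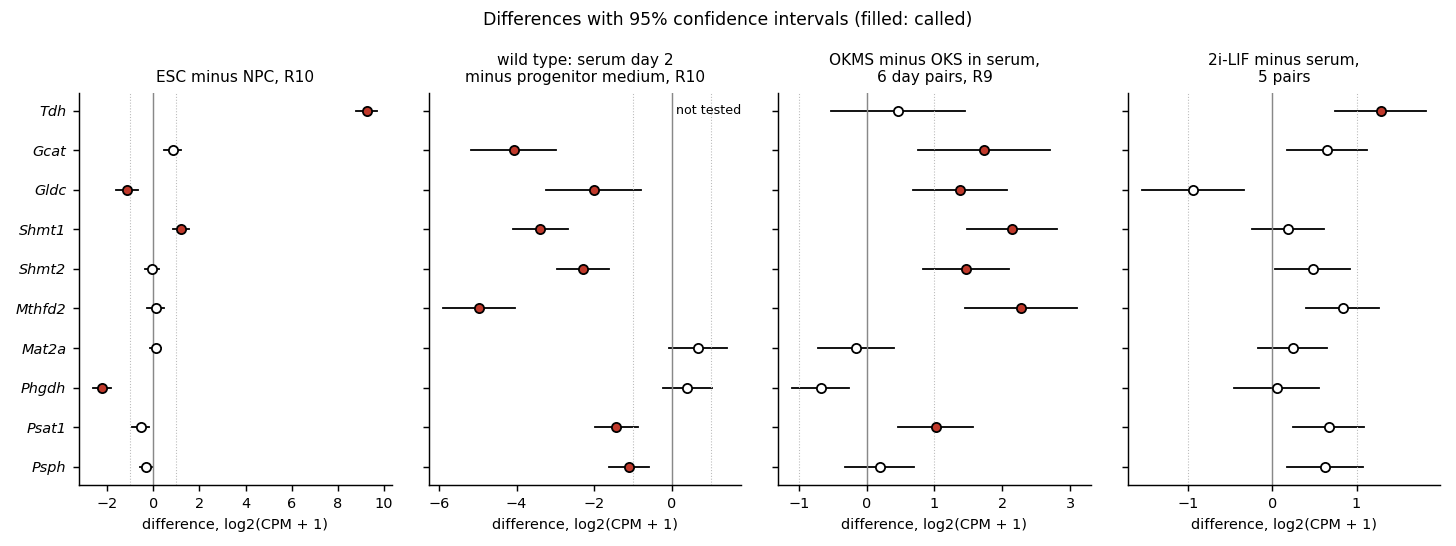
Differences of log2(CPM + 1) with 95% confidence intervals for the 10 genes in 4 comparisons, filled points being called. Gcat, Gldc, Shmt1, Shmt2, Mthfd2 and Psat1 are filled on the lower side for WT progenitors in serum and on the higher side for OKMS minus OKS, and Tdh is filled for ESC minus NPC and 2i-LIF minus serum.

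Of the genes around them, 6 of 11 other folate enzymes were higher in OKMS, Mthfd1 and Tyms among them, and none lower, with a list median of 1.03, beside 6.93% higher and 11.0% lower over all genes. Methionine cycle genes gave 3 higher of 9 (Ahcy, Mtap and Mtrr) and the response genes 3 higher of 12 (Aldh18a1, Asns and Pycr1). The transporters gave 1 lower of 9, near the share over all genes. Under median centring of each library the calls over all genes went from 38.6% to 53.8% higher.

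Other cell states differed between the same libraries. Summed proliferation markers were at 675 to 1160 CPM in R9 OKMS and 196 to 274 CPM in R9 OKS at days 2 to 10, and 3 of 4 were called higher in OKMS. Pluripotency genes summed to 63.3 to 4822 and 51.3 to 111 CPM and astrocyte markers to 21.1 to 254 and 130 to 429 CPM, all 4 astrocyte markers being called lower in OKMS. Myc itself is not split into native and introduced copies. In R9 it was at 74.6, 87.6, 66.9 and 15.5 CPM in OKMS at days 2, 4, 6 and 10. In R9 OKS it was at 20.1, 57.2, 54.9 and 58.0 CPM, so among these R9 days OKMS was lower only at day 10 (11 reads). At R9 days 14 and 20 it was at 77.0 and 93.6 CPM in OKMS and at 53.8 and 49.6 CPM in OKS. In R10 OKMS it was at 103, 166, 136 and 39.0 CPM at the same days. In R10 OKS it was at 25.0 and 41.4 CPM at days 2 and 6. At R10 day 18 OKMS was the lower system, at 5.94 CPM (4 reads) against 52.5 CPM in OKS. The part of these differences in the 6 calls was not tested.

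**Figure D4:**
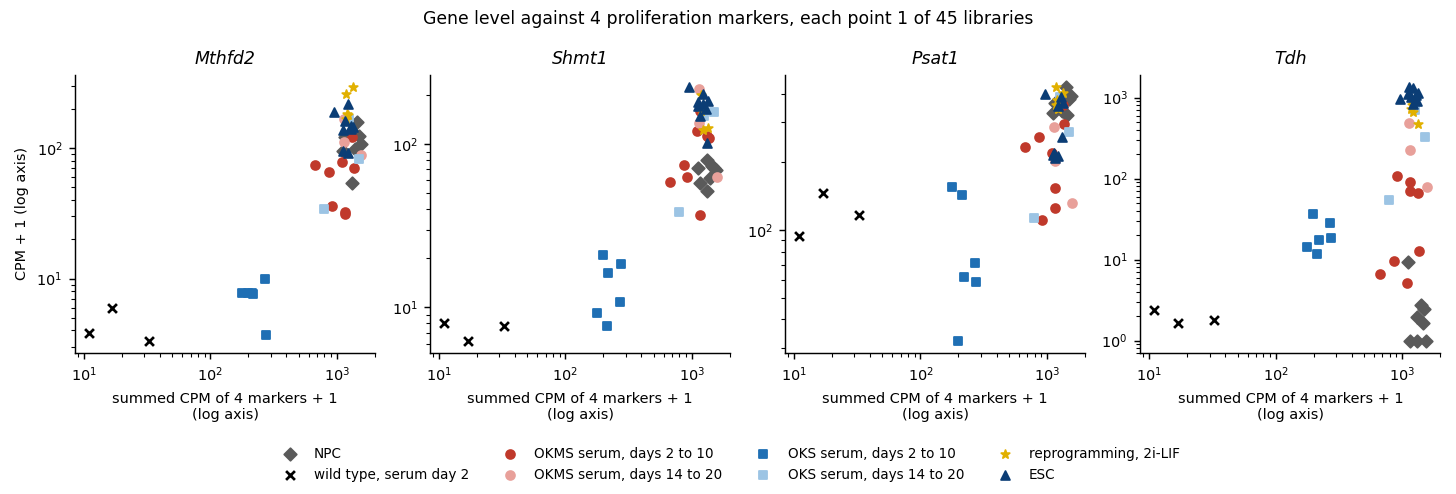
CPM + 1 of Mthfd2, Shmt1, Psat1 and Tdh against the summed CPM + 1 of 4 proliferation markers (both log axes), each point 1 of the 45 libraries. WT progenitors in serum and OKS libraries of days 2 to 10 lie at the low left for Mthfd2 and Shmt1, while for Tdh the progenitors lie at the low right.

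Tdh rose during the time course, and its midpoint was passed on an earlier day in the OKMS libraries than in the OKS libraries, a difference in day that was not tested. In R9 OKMS libraries it was at 5.65, 4.17, 90.1, 105.5, 222 and 480.2 CPM at days 2, 4, 6, 10, 14 and 20, and in OKS at 10.7, 16.2, 17.4, 35.7, 53.8 and 693 CPM. OKMS was under OKS at days 2, 4 and 20 and above it at days 6, 10 and 14, so the mean difference was only 0.47 ± 0.46 (adjusted p = 0.478). Its log2 level first passed the midpoint between progenitors and ESCs at day 6 in OKMS and day 14 in OKS, and stayed past it on the later days. In R10 it was at 8.69, 11.7, 65.4, 68.7 and 78.6 CPM at days 2, 4, 6, 10 and 18 in OKMS and at 13.4, 26.9 and 329 CPM at days 2, 6 and 18 in OKS, with the midpoint first passed at day 6 and day 18.

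At day 20 in serum Tdh stood at 89.8% (OKMS) and 95.9% (OKS) of the log2 distance to ESCs in R9, and at day 18 in R10 at 58.9% (OKMS) and 81.0% (OKS). Already at day 2 both OKMS libraries and both OKS libraries, at 5.65 to 13.4 CPM, were above the WT progenitors in serum, at 0.659 to 1.42 CPM, although the R9 OKS progenitors were at 8.43 CPM before induction. Those day 2 values were 5 (OKMS) and 8 reads (OKS) in R9 and 11 and 36 reads in R10. The WT values were 1 read in R9 and 2 reads in each R10 library. The 2 transcripts that lead in ESCs, described below, took 0% of the Tdh TPM in each of these OKMS and OKS day 2 libraries. They also took 0% in both OKS libraries of day 6. So the early values are not shown to be the transcripts of ESCs. That comparison has 1 library per system and chemistry and was not tested.

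Changes over days 0 to 20 that OKMS and OKS share were tested in the 14 R9 libraries. With 1 library per system and day, courses that differ between the systems add to the spread, so such genes are harder to call. Limma called 3 of the 10 genes, beside 10.7% of 19357 genes. Over all genes, 5.50% were higher and 5.24% lower on the day of the largest difference from day 0. Tdh was highest against day 0 at day 20 (7.56 ± 1.09, adjusted p = 0.00854). Mthfd2 was lowest at day 6 (-3.34 ± 0.75, adjusted p = 0.0233) and at 0.63 ± 0.75 at day 20. Psat1 was lowest at day 10 (-2.54 ± 0.48, adjusted p = 0.024) and at -0.06 ± 0.48 at day 20. For both, the R9 values went down and came back. At day 6 Mthfd2 was at 24.8% of its day 0 level in R9 OKMS but at 113.8% in R10 OKMS, and Psat1 at 41.7% and 91.2%. At day 10 the chemistries were alike in OKMS, at 29.0% and 29.5% for Mthfd2 and 30.0% and 31.4% for Psat1. By day 18 R10 OKMS stood at 82.3% for Mthfd2 and 33.1% for Psat1. Without day 10 Psat1 was not called (adjusted p = 0.0538). Gldc (-1.91, adjusted p = 0.0759) and Psph (-1.37, adjusted p = 0.091) missed the threshold. Without day 20 only Psat1 was called, Tdh having a difference of 5.17 (adjusted p = 0.112) and Mthfd2 an adjusted p of 0.0694, and with the R10 days 0, 2, 6 and 18 only 1 gene was called. With edgeR on recovered reads 8 of the 10 were called. The share over all genes with edgeR is not given here, so that count is not read as a stronger result about the 10.

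Shmt1 and Phgdh, called with Tdh between ESCs and progenitors in both chemistries, had courses that differed between systems and chemistries. Shmt1 first passed its midpoint at day 4 in OKMS in both chemistries, went back under it at day 10, and passed it at day 20 (R9) and day 18 (R10) in OKS. At the later OKMS days the chemistries differed: R9 stood at 61.5% of the log2 distance to ESCs at day 14 and 101.6% at day 20, and R10 at -10.3% at day 18. Phgdh in R9 OKMS passed its midpoint at day 6 and stayed past it, at 213, 125, 209 and 129 CPM. In R10 OKMS it passed it at day 10 (90.1% of the distance) and was at 48.7%, just short of it, at day 18. In R9 OKS it passed it at day 14 (203.5 CPM) and was back above it at day 20 (254 CPM). In R10 OKS it was at 385, 273.5 and 223 CPM and did not pass it.

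Tdh was higher in reprogramming cultures moved to 2i-LIF. The 5 pairs of libraries compared share the system, the day and the flow cell type and differ in medium, and over these limma called 1 of the 10 genes, higher, beside 12.3% of 14935 genes (5.95% higher, 6.32% lower). The median over the 10 genes was 0.55, beside -0.03 over all genes. The kinase inhibitors, the loss of serum and, by the labels' media, the loss of doxycycline came together and cannot be told apart. The serum libraries of these pairs also entered the comparison of OKMS with OKS or the time course.

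Tdh was at 923 CPM in 2i-LIF and 222 in serum for OKMS day 14, 720.2 and 480.2 for OKMS day 20, and 801 and 693 for OKS day 20 in R9. In R10 day 18 it was at 473 and 78.6 CPM for OKMS and 663 and 329 for OKS. It was higher in 2i-LIF in 5 of 5 pairs, by 0.21 to 2.57, with a mean of 1.29 ± 0.26 (adjusted p = 0.00233). Without the OKMS day 18 pair the mean was 0.96 and Tdh was not called. The R9 pairs alone gave 0.95 (adjusted p = 0.0617) and the R10 pairs alone 1.79 (adjusted p = 0.0532). The difference between the systems in this effect was not called (-1.13, adjusted p = 0.786).

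**Figure D5:**
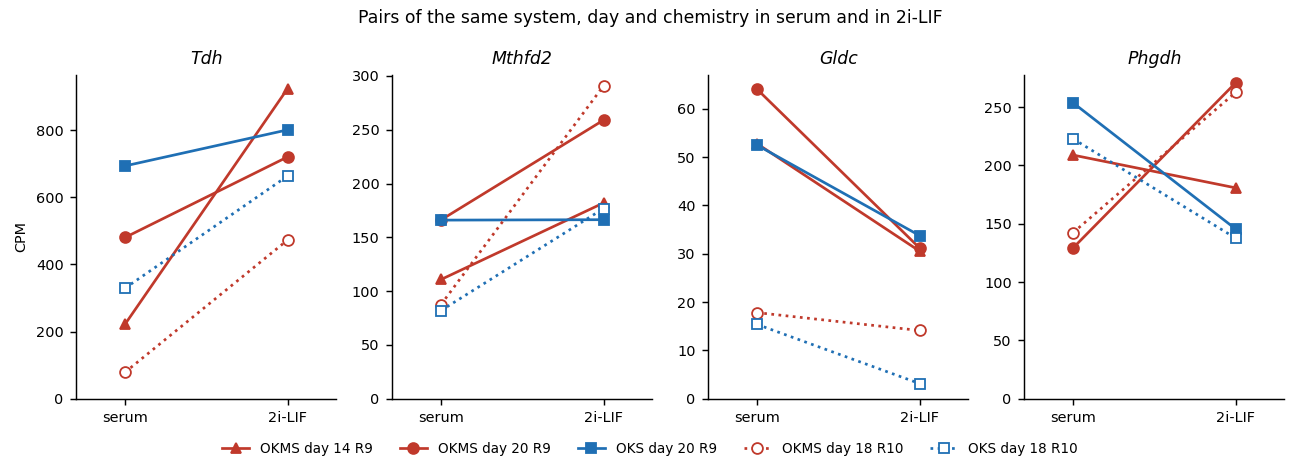
CPM in serum and in 2i-LIF for 5 pairs of libraries of the same system, day and flow cell type. The Tdh lines all go up to 2i-LIF, by 0.21 to 2.57 in log2(CPM + 1), and the smallest rise is that of OKS at day 20.

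Another 3 genes passed the adjusted p but not the fold limit. Mthfd2 was higher in 2i-LIF in 5 of 5 pairs (182, 259, 166.4, 291 and 177 CPM against 111, 166, 166.0, 87.5 and 82.0, for OKMS day 14, OKMS day 20 and OKS day 20 in R9 and OKMS and OKS day 18 in R10; 0.84 ± 0.21, adjusted p = 0.0102). In OKS day 20 the values were almost the same, and without that pair Mthfd2 was called (1.04, adjusted p = 0.00807). Psat1 was higher in 4 of 5 pairs (0.67 ± 0.20, adjusted p = 0.0322). Gldc was lower in 5 of 5 pairs (-0.94 ± 0.29, adjusted p = 0.0348), at 30.5, 31.2, 33.8, 14.1 and 3.13 CPM against 52.8, 64.0, 52.5, 17.8 and 15.4 CPM, the R10 values being 2 to 12 reads. Without the OKMS day 18 pair Gldc was called lower (-1.10, adjusted p = 0.0231).

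Psph was higher in 5 of 5 pairs (0.63, adjusted p = 0.059) and Gcat in 4 of 5 (0.64, adjusted p = 0.0637) without passing. Phgdh went both ways, higher in 2 of 5 (0.05, adjusted p = 0.926). Among the other lists, 5 of 12 response genes were higher in 2i-LIF (Asns, Atf5, Chac1, Pycr1 and Trib3) and none lower, with a list median of 0.97, beside 5.95% higher over all genes. Of the folate enzymes and of the methionine cycle genes 1 of 11 each rose (Tyms and Bhmt), near that share, of the glycine cleavage partners 1 of 3 (Amt) and of the transporters 0 of 9. Pluripotency markers were called higher in 4 of 6, and Myc was at 2.59 CPM in 2i-LIF and 55.7 in serum on average (-3.64). Whether the share of pluripotent cells had a part in the Tdh difference was not tested.

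The 5 reprogrammed libraries in 2i-LIF were then set against the 9 ESC libraries, which grew in 2i-LIF. Limma with flow cell type as a term called 1 of the 10 genes, higher, beside 3.36% of 14946 genes (1.87% higher, 1.49% lower). That gene was Phgdh, at 181, 271 and 145.5 CPM (R9) and 263 and 138 CPM (R10) against 147 and 139 CPM (R9) and 47.5 to 89.3 CPM (R10). The R10 libraries did not overlap with the R10 ESCs, while in R9 the OKS library lay between the ESC libraries (1.07 ± 0.24, adjusted p = 0.0138). R9 alone gave 0.43 (adjusted p = 0.482), and leaving out the OKMS day 18 library gave 0.71 (adjusted p = 0.0888) and the OKS day 18 library 1.10 (adjusted p = 0.0501), so the call rests on the R10 libraries.

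Tdh was lower in the reprogrammed libraries, at 473 to 923 CPM against 838 to 1341 CPM, by 0.62 ± 0.16 (adjusted p = 0.027), under the fold limit. The other 8 genes did not pass. The R10 libraries of day 18 held 566599 and 638701 reads in 2i-LIF, the shallowest of their type.

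Over all 45 libraries Tdh ranged from 0 to 1341 CPM with a median of 65.4. The genes whose log2 level followed it most closely, by the mean of Pearson's r over the 22 R9 and the 23 R10 libraries among 8892 genes, were Tfcp2l1 (0.96), Cobl (0.96), Fam25c (0.95), AU018091 (0.95) and Tuba4a (0.94). Among the other 9 genes r was highest for Shmt1 (0.63) and Gcat (0.56) and lowest for Phgdh (-0.80). The libraries share cultures and time points, so these are descriptions without a test.

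The deposited transcript table, in TPM, divides Tdh into 50 transcripts. Those that match a GENCODE transcript at every splice site carried 90.5% of the R10 Tdh signal. The leading 2, both of 9 exons and both matching Tdh-201, with lengths of 1614 and 1557 bases, took 46.0 ± 3.11% and 41.7 ± 2.21% (SD, n = 7) in R10 ESCs and 42.7 ± 1.81% and 42.2 ± 3.10% (n = 2) in R9 ESCs. Phgdh was carried by 1 transcript of 12 exons that matches Phgdh-201, at 94.9 ± 3.26% in 7 R10 ESC libraries and 89.0 ± 4.22% in 4 R10 progenitor libraries. Phgdh has 17 other genes of at least 90% identity over at least 500 bases among GENCODE transcripts, and 2 of them, Gm9347 and Gm7901, are in the gene table at up to 27.2 CPM. Reads of the others could be counted as Phgdh, and how many was not tested. Tdh, Mat2a and Psat1 each have 1 such copy, none of them in the table, and the other 6 genes have 0. The leading Shmt2 transcript matches no GENCODE transcript at every splice site and reaches from chr10:127517317 to 127629863. It took 63.4 ± 6.17% of the gene's TPM in R10 ESCs and 46.8 ± 6.84% in R10 progenitors. In R9 it took 32.4 ± 2.08% in ESCs and 33.8 ± 11.55% in progenitors.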

How the data were processed

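Long-read cDNA libraries of progenitors, reprogramming cultures and stem cells were compared (22 R9, 23 R10). The authors deposited a gene table in CPM with 23575 genes and a transcript table in TPM. The structural categories, lengths and exons of the transcripts come from a classification deposited apart from it. Reads were aligned with minimap2 2.24-r1122 to mm10 per the submitters' processing notes. The gene and transcript levels were deposited under the name IsoQuant. How strand was used in the counting is not given in the sources used here. Of the CPM columns, 13 match no sample and were not used. All CPM values were whole reads within 0.02 reads (100% of 711452 values above 0), so depth was recovered from the CPM steps (R9 median 814718, R10 median 2342551 reads).

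Tests used limma 3.58.1 (R 4.3.3) with an intensity trend on log2(CPM + 1), over genes of at least 1 CPM in as many libraries as the smaller group, with Benjamini-Hochberg adjustment over all genes tested. A fold change on this scale understates the change of low genes. Comparisons across flow cell types had that type as a term, and OKMS against OKS and 2i-LIF against serum were paired by day and type. Alternatives were a pseudocount of 0.25, no filter or 5 CPM, median centring, edgeR 4.0.16 and DESeq2 1.42.0 on recovered reads, 1 chemistry alone, leaving out each library, day or pair, and a replicate block for the WT libraries. The samples sharing a number in that comparison are not stated to share a culture. The code was tested on simulated data. In the shallow 2i-LIF libraries of R10, limma there called unchanged genes of few CPM, mostly as lower.

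The 10 genes are all named, and up to 4 genes of each pathway list by the largest difference among those called in R10 ESCs against progenitors. Others were named after their values were seen. Genes and lists were chosen with earlier results of these data known. Ftcd and Mat1a, of the pathway lists, were not analysed here, and some genes of the folate list are not reported here by name. Promoter windows are from RefSeq on GRCm38.p6, and coordinates are those deposited. The deposited spans of Shmt1, Shmt2, Psat1 and Psph run far past their GENCODE genes. Those are at chr11:60788104-60811718, chr10:127517123-127522444, chr19:15904678-15947337 and chr5:129765558-129787449. How many counted reads came from transcripts that run past the GENCODE genes was not tested. GGGCGG and CCAAT were added to the motif search after seeing the data. Near copies were searched among GENCODE M21 transcripts. A TPM share sets a transcript against all transcripts of its gene.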

Additional observations from a re-analysis of the deposited data

Results flagged for a closer look

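In 4 of the 30 combinations of a gene and a group of 4 to 10 libraries that were tested with Dixon's criterion, 1 library stood far from the others, and chance gives about 1 in 20. Tdh was at 8.43 CPM in the R9 OKS progenitors and at 0 to 0.968 CPM in the other 3 R9 progenitor libraries. Shmt2 was at 73.6 CPM in the second R9 WT progenitor library and at 129.8 to 136 CPM in the others. In the R1 ESC library without a number, of R10, Gcat was at 108 CPM and Shmt2 at 200.5 CPM, against 59.6 to 80.6 and 137 to 156 CPM in the other 6 R10 ESC libraries.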

How the results depend on the processing

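Of the 1068 values of single genes under alternatives, 943 kept their direction and their side of the threshold, 67 were no longer called, 23 became called and 35 changed sign. None of the pseudocounts and filters moved the number of the 10 genes called by over 1.5 times in any comparison. For ESCs against progenitors it was 4 with each library left out in R10, and 3 to 5 in R9, and with median centring 6 in R9. In the R9 time course it was 3, but 7 with median centring, 8 with edgeR and 7 with DESeq2. The calls over all genes in these fits are not given here, so the rise is not read as a result about the 10. It was 1 with the R10 days, and 1 to 3 with a day left out. Under centring the median of all genes moved from 0.63 to -0.45. For OKMS against OKS it was 0 with the R10 pairs of days 2, 6 and 18, 0 with days 14 and 20 alone, a choice made after seeing the data as were days 2 to 10 and the R10 pairs of days 2 and 6, and 4 to 6 with a day left out. For 2i-LIF against serum it was 0 with R9 or R10 pairs alone (3 and 5 genes at an unadjusted p under 0.05 by limma) and 1 to 2 with a pair left out. For reprogrammed cells against ESCs it was 0 with R9 alone (0 at an unadjusted p under 0.05) and 0 to 1 with a library left out, and over all genes edgeR called 223 (76.2% higher) and DESeq2 300 (79.7% higher) against 502 with limma (55.8% higher). For WT progenitors in serum it was 0 with the R9 libraries (5 unadjusted, and 1562 calls over all genes, from 1 serum library against 2 progenitor libraries, whose spread alone is used) and 0 to 3 with a library left out. The fit with a replicate block also gave 7, and over all genes 5605 calls against 3940. Same-numbered libraries had deviations correlated at 0.47 over 14688 genes, with 2 pairs.

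The cause of the changes of sign was not tested. In R10 ESCs against progenitors, Shmt2 was 0.16 with centring, 0.001 with DESeq2, 0.31 with the unnumbered R1 library alone and -0.16 to 0.081 with a library left out, and Mthfd2 was -0.13 with WT progenitors only. In R9, Gldc was 0.12 with centring, 0.046 with edgeR, 0.067 with DESeq2 and -0.10 to 0.028 with a library left out, and Mat2a 0.15, 0.001, 0.036 and -0.20 to 0.18. In the time course, Gcat was 0.71 and Mat2a -0.61 with the R10 days, and Shmt1 -1.60 to 1.49 with a day left out. For OKMS against OKS, Mat2a was 0.001 with centring, 0.12 with days 14 and 20 and -0.42 to 0.071 with a day left out, and Tdh -0.46 with R10 pairs. For 2i-LIF against serum, leaving out a pair gave -0.013 to 0.34 for Shmt1 and -0.20 to 0.26 for Phgdh. For reprogrammed cells against ESCs, Mat2a was 0.002 with DESeq2 and 0.31 with R9 alone, where Shmt2 was -0.10, Mthfd2 -0.013 and Psph -0.18. With a library left out of it, Gcat was -0.35 to 0.002, Gldc -0.79 to 0.003 and Mat2a -0.19 to 0.20.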

Other observations

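Mat2a, which makes S-adenosylmethionine, differed between sets of libraries in its transcripts, while its total level was not called in any comparison. A short transcript that matches Mat2a-210 has 406 bases and 3 exons. By its usual definition TPM divides reads by transcript length, so such a transcript takes a larger share of TPM than of reads. Shares of reads were not computed. The short transcript took 55.0 to 69.4% of the gene's TPM in the 4 R10 libraries of day 18. In the 6 numbered R10 ESC libraries, of the same block of deposit, it took 19.7 to 30.1%. It took 4.27% in the R1 ESC library without a number, 1.35 to 5.78% in the 4 R10 progenitor libraries, 13.2 to 17.9% in R10 OKMS days 2 to 10, 1.08 to 5.39% in R10 OKS days 2 and 6, 6.15 to 6.49% in R10 WT progenitors in serum and 0 to 14.2% in the R9 libraries. The share of reads on mitochondrially encoded genes was 1.81 to 2.35% in the numbered R10 ESC libraries, 1.56 to 2.04% in the R10 day 18 libraries, 1.302 to 1.638% in R10 OKS days 2 and 6 and 0.729 to 1.51% in R10 OKMS days 2 to 10, and its part in these shares was not tested.

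The leading transcript of Mthfd2 was also divided unevenly, with 35.2 to 45.1% of the gene's TPM in the 6 numbered R10 ESC libraries, 19.9% in the unnumbered one, 13.1 to 19.2% in the R10 progenitors and 18.6 to 39.9% at R10 day 18. In R9 the order was different, with 17.8 and 7.96% in ESCs and 12.0 to 40.4% in progenitors. These shares come from 1 table of the authors and carry no test.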
